A study of Mus musculus with 3 samples.

Results

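The sites described here were CCGG sites that lay in CpG-rich sequence far from genes. Each was an autosomal CCGG site listed in at least 1 of the 3 MethylRAD libraries, over 5 kb from every gene body of GENCODE M21 basic on GRCm38, with a centred 500 bp window of CpG observed/expected above 0.48 and GC above 55%. There were 2743 such sites among 969569 autosomal CCGG sites listed in any library, of 31548 CCGG motifs in the genome that met the same position and sequence limits. The study grew E14Tg2A, an established mouse embryonic stem cell (ESC) line, and sequenced 1 library per condition. The undifferentiated cells were kept with leukemia inhibitory factor (day 0), the untreated cells were taken on day 7 after its withdrawal and addition of retinoic acid, and the treated cells were taken on day 7 of the same protocol with 3 mM pargyline, an inhibitor of the histone demethylase LSD1. All 3 samples are bulk cultures of 1 cell line, so a change in the mixture of cells and a change within cells cannot be told apart.

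CpG-rich stretches of DNA are known as CpG islands. Most mark promoters and are kept free of methylation, and orphan CpG islands are those that lie away from annotated promoters, many of them near developmental regulator genes or inside repeats. In mouse ESCs, methylation is added during differentiation by the de novo DNA methyltransferases, and dense CpG islands are largely protected from it. In MethylRAD, the enzyme FspEI releases a short fragment around a methylated CCGG, so the reads at a site increase with its methylation. A site is listed when it has at least 5 reads, and an unlisted motif may be unmethylated, lightly methylated or impossible to map uniquely.

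The sequences below show the difference that mattered most for listing, between CpG-rich DNA that is unique in the genome and CpG-rich DNA that belongs to repeats. Each has 30 bases of the plus strand of RefSeq GRCm38 with the CCGG motif in capitals. The first set holds the deepest site of clusters that are described below, and no other CCGG-centred 32 bp sequence of the assembly lay within 4 mismatches of any of them.
chr3:5860654-5860683, between Gm8797 and Gm37350: aggcccccggcgcCCGGctccgtcctcgcg
chr7:16300074-16300103, between Ccdc9 and Bbc3: tgtcgctccctatCCGGaccagggccctgc
chr1:120596498-120596527, between Marco and En1: tccagcaccttgcCCGGaaagagtttcccc
chr15:103183419-103183448, between Smug1 and Cbx5: gagcgcccaggcgCCGGaccggattccggg
chr13:116705824-116705853, between Gm47914 and 4930435F18Rik: ctgtgatctccagCCGGgtccccgcaggcg
chr2:157675277-157675306, between Platr27 and Gm25407: tgaggaaggtgacCCGGcagcaagggcagg

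The second set shows the repeats. Its first line is the centred sequence found most often among the CpG-rich CCGG motifs far from genes, given in 1 of its orientations. The others are 3 listed sites whose own 32 bp sequence occurs in 1 place but has many near relatives.
most frequent repeated sequence, without a position of its own: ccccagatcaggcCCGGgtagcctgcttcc
chr4:106177347-106177376, the site with the most reads: ggaagcaggctccCCGGgcctgatctgggg
chr1:30371778-30371807, the next by reads: ggaagcaggctacCCGGgcttgatatgggg
chr1:107823417-107823446, in a cluster listed most in undifferentiated cells: gccaccttccggaCCGGagcacaggtgccc

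The repeated sequence stood at 2341 of the CpG-rich motifs far from genes and had 4769 copies among all CCGG-centred sequences, and 70 of those 2341 motifs were listed. Read on the opposite strand, the chromosome 4 site matched it at 29 of 30 bases and the chromosome 1 site at 28 of 30. The chromosome 4 site had 1770 reads in undifferentiated cells, 4249 in untreated cells and 2956 in treated cells, and 4784 other CCGG sequences lay at exactly 1 mismatch from it. The chromosome 1 site had 173, 231 and 170 reads, with 1931 sequences at 1 mismatch. The authors allowed 1 mismatch in mapping, and the part of that setting in these depths was not tested.

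Few CpG-rich CCGG motifs far from genes were listed, and more were listed in both day 7 samples than in undifferentiated cells. Of the 31548 motifs, 1196 (3.79%, 95% Wilson interval 3.59 to 4.01) were listed in undifferentiated cells, 1779 (5.64%, 5.39 to 5.90) in untreated cells and 2298 (7.28%, 7.0 to 7.58) in treated cells. CpG-poor motifs at the same distance from genes, with a CpG ratio of at most 0.48, were listed at 55%, 54.3% and 54.3%, so they did not share this order. All autosomal CCGG motifs were listed at 54.4%, 55.1% and 55.7%, in the same order with far smaller steps. The low share came largely with repeats, since 27724 of the 31548 motifs (87.9%) had a 32 bp sequence that occurs at more than 1 CCGG of the assembly, and 17052 of them occurred over 1000 times. Of the repeated motifs, 47, 315 and 582 were listed (0.170%, 1.14% and 2.10%). All repeated autosomal motifs were listed at 0.184%, 1.32% and 2.3%, and repeated CpG-poor motifs far from genes at 0.137%, 1.12% and 2.02%, in the same order of libraries. Only reads with 1 position in the genome were to be counted, and what lets repeated motifs be listed, and more often on day 7, was not tested.

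The 3824 motifs with a single-copy 32 bp sequence therefore carry most of the information. They were listed at 30.0% (28.6 to 31.5) in undifferentiated cells, 38.3% (36.8 to 39.8) in untreated cells and 44.9% (43.3 to 46.5) in treated cells. The intervals of the 3 libraries did not overlap, but they cover counting error only, PCR copies were not separated, and 680 of the 2743 sites lay within 32 bp of another, so neighbouring sites are not independent. Single-copy CpG-rich motifs within 1 kb of a transcription start site were listed at 5.04%, 12.1% and 16.4%, and those in gene bodies at 34.7%, 45.2% and 54.4%. The CpG-rich motifs far from genes thus lay above the promoters and below both the gene bodies and the CpG-poor motifs (75.2%, 74.0% and 73.6%) in every library. Against gene bodies this held for the unmasked motifs (25.7%, 33.6% and 43.0%, against 34.8%, 45.3% and 54.8%) and turned for the masked ones (40.4%, 49.3% and 49.4%, against 31.8%, 42.4% and 44.6%), of which there were 1131 of 3824 far from genes and 695 of 20865 in gene bodies. The same order of libraries was seen in all 3 CpG-rich classes and, in small steps, in all single-copy autosomal motifs (67.3%, 67.9% and 68.4%), but not in the CpG-poor class.

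**Figure D1:**
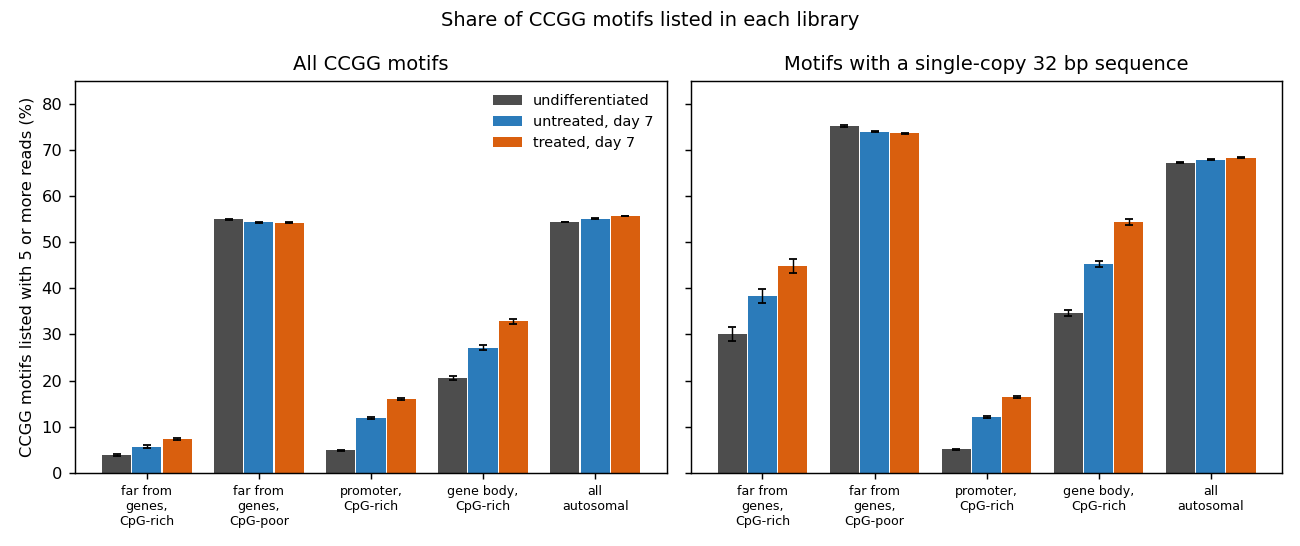
Percentage of CCGG motifs listed with 5 or more reads in each library, for all motifs and for motifs with a single-copy 32 bp sequence, with 95% Wilson intervals for counting error. CpG-rich motifs far from genes rise from 3.79% to 7.28% when all motifs are counted and from 30.0% to 44.9% when single-copy motifs are counted, whereas CpG-poor motifs far from genes stay near 55% and 75%.

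The share listed was higher in untreated than in undifferentiated cells on 19 of 19 autosomes and higher in treated than in untreated cells on 17 of 19. The order depended on the depth asked of a site. With at least 10 reads, 17.8%, 24.9% and 27.2% of the single-copy motifs were listed in undifferentiated, untreated and treated cells. With at least 20 reads the shares were 9.94%, 13.9% and 11.5%, so treated cells fell below untreated cells. With a single-copy sequence that also had no relative at 1 mismatch (2881 motifs, a setting chosen after the data were seen), the shares were 27.1%, 35.4% and 44.0%. The 943 single-copy motifs that had a relative at 1 mismatch were listed at 39.1%, 47.0% and 47.6%, nearly alike in both day 7 samples.

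Listing fell with CpG density within the set. Single-copy motifs with a CpG ratio of 0.48 to 0.55 (1175 motifs) were listed at 44.4% in undifferentiated, 52.9% in untreated and 59.8% in treated cells. Those above 0.75, the high CpG class of the study, numbered 861 and were listed at 11.1%, 17.2% and 21.6%. With more than 40 CpGs in the 500 bp window (643 motifs), the shares were 6.38%, 12.6% and 15.6%. All 5 bins of the CpG ratio had the order undifferentiated, untreated, treated. The motifs farthest from genes were listed most often, at 44.2%, 51.0% and 53.9% beyond 100 kb (206 motifs) against 24.9%, 34.9% and 43.6% at 5 to 10 kb (1125 motifs). From 5 to 10 kb to the next bin, 10 to 20 kb, the shares of both day 7 libraries did not increase (34.2% and 41.2%).

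**Figure D2:**
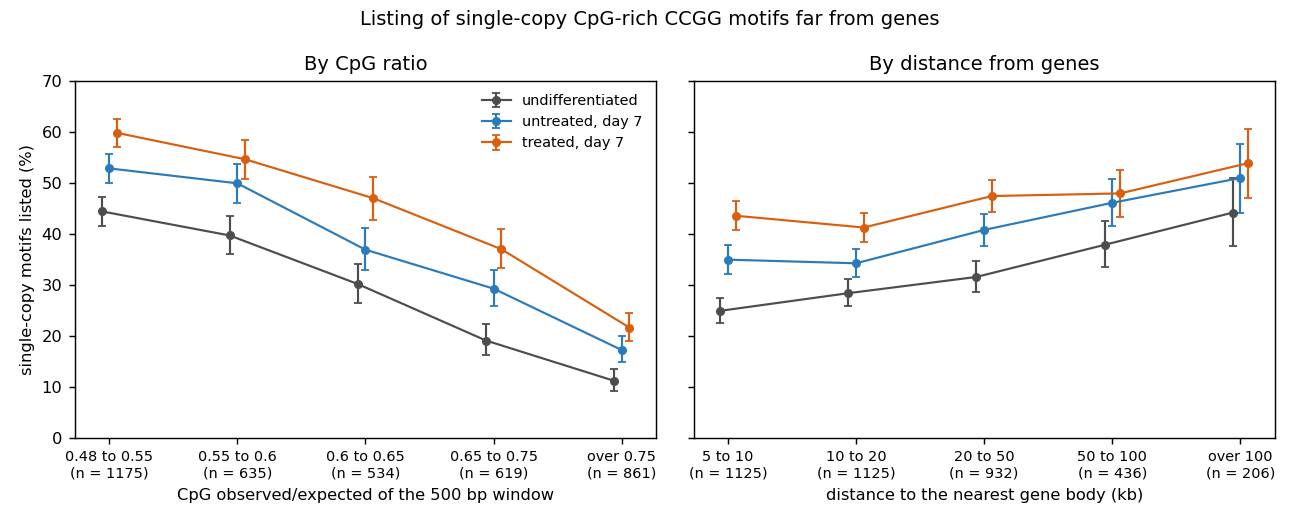
Percentage of single-copy CpG-rich CCGG motifs far from genes that were listed in each library, by CpG observed/expected of the 500 bp window and by distance to the nearest gene body, with 95% Wilson intervals for counting error. The shares fall from 44.4%, 52.9% and 59.8% in the lowest CpG bin to 11.1%, 17.2% and 21.6% in the highest, and are highest beyond 100 kb.

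The limits of the rule cut a continuous range. Just inside the limit of the CpG ratio (0.48 to 0.56), 44.1%, 52.7% and 59.7% of single-copy motifs were listed, and just outside it (0.40 to 0.48, other limits kept) 52.3%, 61.2% and 66.0%. At GC of 55 to 60% the shares were 39.3%, 47.1% and 54.9%, against 55.6%, 60.9% and 62.6% at 50 to 55%. Motifs 1 to 5 kb from a gene were listed at 18%, 24.2% and 40.3%.

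Of the 2743 listed sites, 2036 (74.2%) were single-copy, 1351 (49.3%) were soft-masked in the assembly as repeats and 179 had over 1000 copies. Their windows had a median CpG ratio of 0.57 and a median GC of 60%, and their median distance to a gene was 19.4 kb. The distance rests on the annotation, because 418 sites (15.2%) were inside a gene model of RefSeq and 605 (22.1%) were within 5 kb of one. The nearest gene was protein-coding for 1000 sites, a processed pseudogene for 671 and a long intergenic noncoding RNA for 426. Sites on the same fragment can share reads. At the 238 neighbouring pairs within 16 bp, 250 of 402 values listed at both sites (62.2%) were equal. Of the 707 repeated sites, 75 had a single-copy CCGG motif within 16 bp, so most were listed without a unique neighbour. Away from such a motif, 17 repeated motifs were listed in undifferentiated cells, 264 in untreated cells and 524 in treated cells, the same order as in repeated motifs over all autosomes (538, 3841 and 6715 listed).

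Sites listed in all 3 libraries numbered 923 (33.6%, against 72.5% of all autosomal CCGG sites). Sites listed in treated cells alone were the next group with 781 (28.5%, against 5.43%), and 504 were listed in both day 7 samples but not in undifferentiated cells (18.4%, against 6.37%). Another 262 sites were listed in untreated cells alone (9.55%, against 2.95%) and 93 in undifferentiated cells alone (3.39%, against 5.20%). Listing in a single library came with few reads, a median of 7 in treated cells alone, 6 in untreated cells alone and 7 in undifferentiated cells alone. Only 51.3% of the sites listed in treated cells alone were single-copy, against 97% of those listed in all 3. Another 1788 single-copy motifs were listed in no library, with a median CpG ratio of 0.66.

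The 3 lists held 40176194, 45216192 and 42020661 reads in all, at 1408466, 1421071 and 2055181 sites of every motif, of which 31614085, 36654600 and 25767119 reads were at CCGG. The CCGG reads are the depth used here. The reads at other motifs were nearly equal in the first and second lists (8562109 and 8561592, against 16253542 in treated cells), and 262961 of 263029 autosomal CCAGG sites listed in both had equal counts, so the untreated total over every motif appears not to be independent of the undifferentiated one. Within these lists the CpG-rich sites far from genes had few reads. The lowest, median and highest counts were 5, 12 and 1770 in undifferentiated cells, 5, 11 and 4249 in untreated cells and 5, 10 and 2956 in treated cells, with sums of 25076, 40789 and 36753 reads. All autosomal CCGG sites had median counts of 27, 30 and 23. Between 5 and 7 reads, next to the limit of listing, lay 30.1%, 30.1% and 33.2% of the CpG-rich sites far from genes.

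Reads were compared after scaling each pair of libraries by the median log2 ratio of all autosomal CCGG sites listed in both, which was 0.25 for untreated against undifferentiated, -0.23 for treated against undifferentiated and -0.46 for treated against untreated. A site was called when its scaled counts differed at least 2-fold with at least 10 reads in the higher library and an unlisted site set at 4 reads. With 1 library per condition there is no test, and both comparisons with undifferentiated cells share that library. Untreated against undifferentiated, 408 of 1962 sites (20.8%) were called higher and 135 (6.88%) lower, where the same rule called 15.3% of all autosomal CCGG sites higher and 18% lower. Treated against undifferentiated, 674 of 2481 (27.2%) were called higher and 132 (5.32%) lower, against 19.3% and 18.9%. Treated against untreated, 481 of 2650 (18.2%) were called higher and 132 (4.98%) lower, against 11.2% and 6.63%. Of the 674 sites called higher in treated cells, 413 (61.3%) were unlisted in undifferentiated cells, against 29.0% of all autosomal sites called higher. Of the 408 called higher in untreated cells, 229 (56.1%) were unlisted before, against 27.4%. The rule calls every site that is unlisted in undifferentiated cells and reaches 10 reads in a day 7 library. With at least 20 reads asked of the higher library, the shares called higher over the same 1962, 2481 and 2650 sites were 8.92%, 7.46% and 4.15%, below the 11.1%, 12.8% and 5.47% of all autosomal sites. The shares called lower were 3.41%, 3.22% and 2.94%, against 13%, 14.6% and 4.7%. Few of these sites reached that depth, and those that did are described below by depth. Among sites listed in both libraries of a pair, 17.7%, 25.8% and 18.1% were called higher, against 13.6%, 17.6% and 10.2%, and 9.38%, 7.31% and 5.96% lower, against 16.5%, 16.7% and 5.84%.

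**Figure D3:**
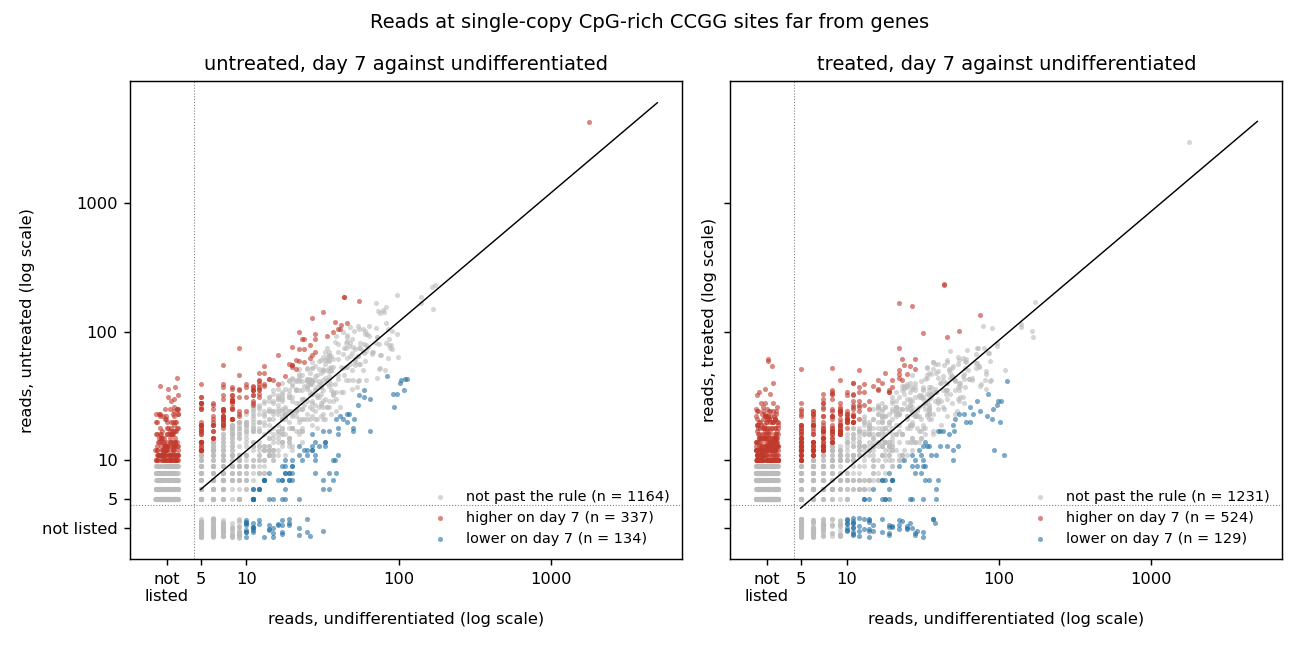
Reads at single-copy CpG-rich CCGG sites far from genes in undifferentiated cells (horizontal, log scale) against untreated cells (left) and treated cells (right), with unlisted sites spread in a band below 5 reads. Points above the diagonal scaling line are higher on day 7 (337 called in untreated and 524 in treated cells), points below it are lower (134 and 129), and many called points lie in the unlisted band.

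At sites listed in both libraries of a pair, the median scaled log2 ratio was 0.21 for untreated against undifferentiated (1013 sites), 0.38 for treated against undifferentiated (1013 sites) and 0.29 for treated against untreated (1427 sites), where that of all sites is 0 by construction. These directions are relative to the other CCGG sites. Scaled by mapped reads in place of CCGG sites, the median of all sites became -0.28, -0.63 and -0.33, and that of the CpG-rich sites far from genes turned to -0.07, -0.25 and -0.04. For untreated against undifferentiated the calls became 261 higher and 172 lower (13.3% and 8.77%), against 9.83% and 23.1% of all autosomal sites. For treated against undifferentiated they became 416 and 252 (16.8% and 10.2%), against 10.5% and 33.4%, and for treated against untreated 383 and 255 (14.5% and 9.62%), against 7.54% and 14.8%. Under both scalings the sites were called higher more often than all sites in each comparison.

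The share of sites called higher on day 7 fell with depth. Among sites with 10 to 19 reads in the deeper library, 64.7% of 756 were called higher in treated than in undifferentiated cells and 6.88% lower, against 33.0% and 22.1% of all autosomal CCGG sites of that depth. With 20 to 39 reads, 37.5% of 395 were called higher and 12.2% lower, against 25.6% and 20.6%. With 40 or more reads, 19.7% of 188 were called higher and 17% lower, against 14.3% and 22.9%, and the median log2 ratio was -0.09, against -0.25 for all such sites. At every depth above 10 reads these sites were thus called higher more often, and lower less often, than all sites. Untreated against undifferentiated, 20.2% of 258 sites with 40 or more reads were called higher and 10.1% lower, against 14.8% and 15.5%, and the median log2 ratio was 0.40, against 0.09. Treated against untreated, 4.88% of 246 deep sites were called higher and 9.76% lower, against 3.55% and 6.42%, with a median log2 ratio of -0.21 in both sets. This split by depth was chosen after the data were seen, and a list that starts at 5 reads limits the ratios that shallow sites can show.

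**Figure D4:**
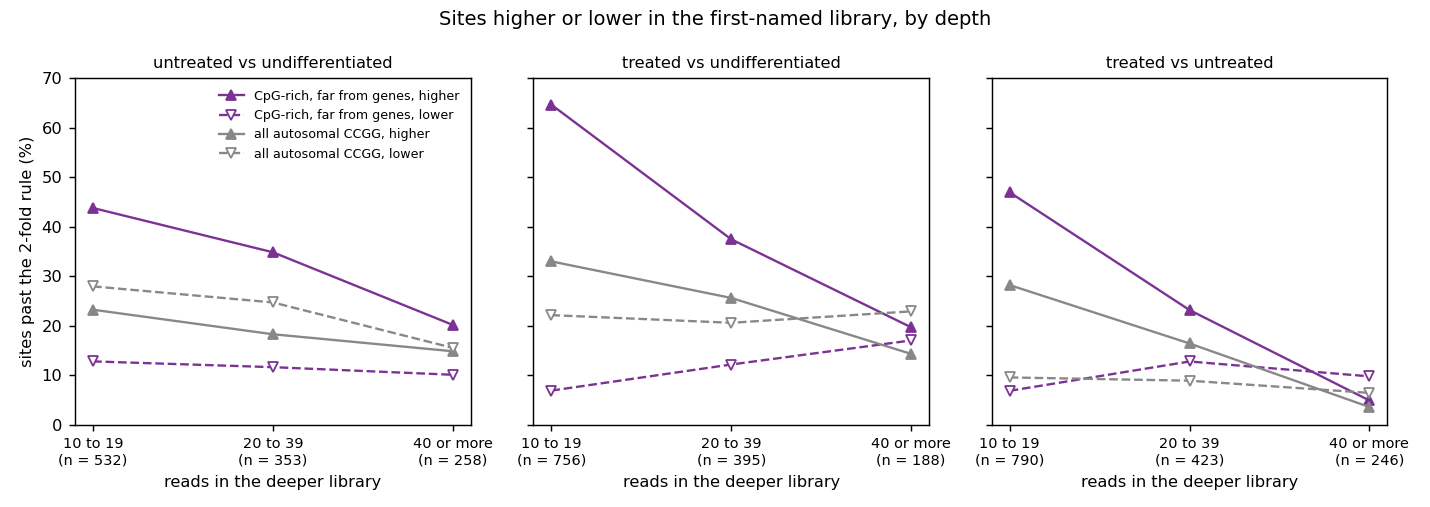
Percentage of sites called higher (filled, solid) or lower (open, dashed) in the first-named library by the 2-fold rule, by reads in the deeper library, for CpG-rich sites far from genes and for all autosomal CCGG sites. In treated cells the share called higher falls from 64.7% at 10 to 19 reads to 19.7% at 40 or more, and against untreated cells to 4.88%.

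Repeat-masked sites and unmasked sites differed in their day 7 values. At single-copy sites in soft-masked sequence, the median log2 ratio was 0.38 for untreated against undifferentiated, 0.28 for treated against undifferentiated and -0.02 for treated against untreated. At unmasked single-copy sites the corresponding values were 0.04, 0.42 and 0.46. The listed shares of both kinds, given above, were nearly equal in treated and untreated cells for the 1131 masked single-copy motifs and highest in treated cells for the 2693 unmasked ones. At 40 or more reads the unmasked sites had median log2 ratios of 0.33 (128 sites), -0.11 (97 sites) and -0.11 (119 sites) in the 3 comparisons, and the masked sites 0.41 (123 sites), -0.08 (83 sites) and -0.35 (120 sites). At that depth both kinds were thus nearly alike against undifferentiated cells.

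A second motif in the same windows was listed more often in treated than in undifferentiated cells. CCAGG motifs contain no CpG of their own, and in the unmasked CpG-rich windows far from genes 13.3% of 1354 were listed in undifferentiated cells and 36.6% in treated cells. Where the 32 bp sequence held no CpG and no CCGG lay within 40 bp (196 motifs), the shares were 6.63% and 41.8%. In unmasked CpG-poor sequence far from genes they were 6.40% and 21.4%, and over all autosomal CCAGG motifs 7.25% and 24.0%, so the higher treated share was not particular to these windows. The untreated list repeated the CCAGG counts of the undifferentiated list at 180 of 180 sites in these windows and gives no value of its own, so treated and untreated cells could not be compared at CCAGG. For CCAGG and CCTGG together, the paper reports the most sites in untreated cells, fewer in treated cells and the fewest in undifferentiated cells. The deposited untreated list does not show this, so the higher treated share cannot be tied to pargyline. The part of this difference in the treated CCGG values was not tested.

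Some of the sites lay in clusters. Chained where neighbours were at most 500 bp apart, the 2743 sites formed 1631 clusters, of which 996 held 1 site, 376 held a pair, 259 held at least 3 and 55 at least 5. The 259 clusters held 995 sites (36.3%). Of these clusters, 187 had a listed site in each library, 61 had none in undifferentiated cells, 18 none in untreated cells and 4 none in treated cells. No matching shares over all autosomal CCGG sites are given here for these counts or for the 36.3%. By summed reads, 22 (8.49%) were at least 2-fold higher and 6 (2.32%) lower in untreated than in undifferentiated cells, against 3.63% and 5.02% of 65660 clusters of at least 3 among all autosomal CCGG sites. Treated against undifferentiated, 87 (33.6%) were higher and 3 (1.16%) lower, against 9.3% and 5.06%, and treated against untreated, 66 (25.5%) were higher and 0 lower, against 5.33% and 0.685%. Without the 2-fold limit, 107 (41.3%) were higher and 43 (16.6%) lower in untreated than in undifferentiated cells, against 45.5% and 44.9% of all such clusters. Both shares were below those of all clusters, because more of these clusters had no determined direction. Higher outnumbered lower here, where the shares were nearly equal over all clusters. Treated against undifferentiated, 201 (77.6%) were higher and 24 (9.27%) lower, against 50.5% and 44.0%, and treated against untreated, 181 (69.9%) were higher and 39 (15.1%) lower, against 49.0% and 44.4%. The direction of the other 109, 34 and 39 clusters in these 3 comparisons could not be determined. Unlisted sites counted as 0 to 4 reads in these sums, whichever gave the smaller difference, and sites on the same fragment repeat reads.

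Among clusters of at least 3 sites outside masked sequence, the most day 7 reads were found on chromosome 3 between Gm8797 (109 kb away) and Gm37350 (20.1 kb away), at chr3:5860660-5860758. All 5 of its sites, 4 of them single-copy, were listed in each library, with summed reads of 152 in undifferentiated, 691 in untreated and 978 in treated cells. At its individual sites undifferentiated cells had 15 to 44 unscaled reads, untreated cells 95 to 186 and treated cells 157 to 233. These sites lie within 99 bp, some within 16 bp of each other, so they can share reads and are not independent. The scaled log2 ratios of the sums were 1.93 and 2.91 against undifferentiated cells and 0.97 for treated against untreated. The median CpG ratio of its windows was 0.86, above the limit of the high CpG class, where 11.1% of single-copy motifs were listed in undifferentiated cells.

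The largest cluster had 11 listed sites of 14 motifs over 936 bp on chromosome 9 (chr9:123924636-123925571), 36.6 kb from Ccr1, which encodes a chemokine receptor, and inside a gene model of RefSeq. Its reads summed to 196, 433 and 366 in undifferentiated, untreated and treated cells, and 7, 7 and 11 of its sites were listed. The scaled log2 ratios of these sums were 0.78 and 1.02 against undifferentiated cells and 0.17 for treated against untreated. The site with the most day 7 reads had 55, 173 and 101. On chromosome 7, between Ccdc9 and Bbc3, which encodes a pro-apoptotic protein of the BCL2 family, 8 of 9 motifs were listed at chr7:16299612-16300090. Of these, 1 was listed in undifferentiated cells (15 reads), 7 in untreated cells (114 reads) and 5 in treated cells (66 reads). A run of 3 sites with 13, 13 and 8 reads in untreated cells was not listed in either other library. This run lies within 16 bp, so its sites can share the reads of 1 fragment. Of 9 clusters with 7 sites, the one with the most reads, on chromosome 4 between Actrt2 and Ttc34, showed little difference, with 92, 104 and 97 reads. Others of that size had most reads in treated cells, such as those on chromosome 19 beside Kcnk18 (46, 66 and 141) and between AC138790.2 and Gm20467 (5, 27 and 83), which were named after their values were seen. On chromosome 2, between Gm14445 and Gm14393, 9 sites inside a RefSeq gene model, 11.1% of them masked, had 103, 120 and 137 reads.

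The 3 clusters with the highest ratios of treated to untreated cells lay in unmasked single-copy sequence. Near En1, which encodes the homeobox factor engrailed, 4 sites 5.76 kb from the gene (chr1:120596511-120596658) had 10 reads in undifferentiated, 21 in untreated and 96 in treated cells. In treated cells every site was listed, with 15 to 34 reads, whereas 1 site was listed in undifferentiated and 2 in untreated cells. On chromosome 13, 3 sites between Gm47914 and 4930435F18Rik had 8, 5 and 57 reads, and 4 sites between Gm32351 and Gm48316 had 16, 7 and 68 reads. The scaled log2 ratios of treated against untreated were 2.19, 2.60 and 2.3 for these 3 clusters. The next highest, on chromosome 2 between Gm13682 and Gm13681, was masked at all 4 sites and had 18, 14 and 72 reads (log2 2.17). Between Smug1, which encodes a uracil-DNA glycosylase, and Cbx5, which encodes a heterochromatin protein, 3 sites at chr15:103183432-103183447 were unlisted in undifferentiated cells and had 16 reads each in untreated and 24 each in treated cells. These 3 motifs lie within 16 bp, where sites can be on the same fragment and share reads.

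The clusters at least 2-fold lower on day 7 were few, and the named ones had at least 50 reads in the higher library. On chromosome 2, between Platr27 and Gm25407, 3 single-copy sites at chr2:157675109-157675293, 1.27 kb from a RefSeq gene model, summed to 162 reads in undifferentiated, 79 in untreated and 61 in treated cells. Its deepest site had 98, 33 and 27 reads, whereas the site with the fewest had 5, 11 and 11. Between Galnt9, a glycosyltransferase gene, and Noc4l, 3 sites had 77, 37 and 37 reads. The scaled log2 ratios against undifferentiated cells were -1.29 and -1.18 for the first and -1.31 and -0.83 for the second, which was thus not 2-fold lower in treated cells. The third such cluster, on chromosome 1 between Gm24267 and Gm22438, had 50, 7 and 0 listed reads but lay in masked sequence, and its deepest site had 1202 relatives at 1 mismatch. Below the limit of 50 reads, 3 unmasked single-copy sites on chromosome 2 between Mir3089 and 1700001O22Rik, inside a RefSeq gene model and named after their values were seen, had 45, 14 and 0 listed reads (log2 -1.57 and -1.68), a lower pair of ratios than in either unmasked cluster above.

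**Figure D5:**
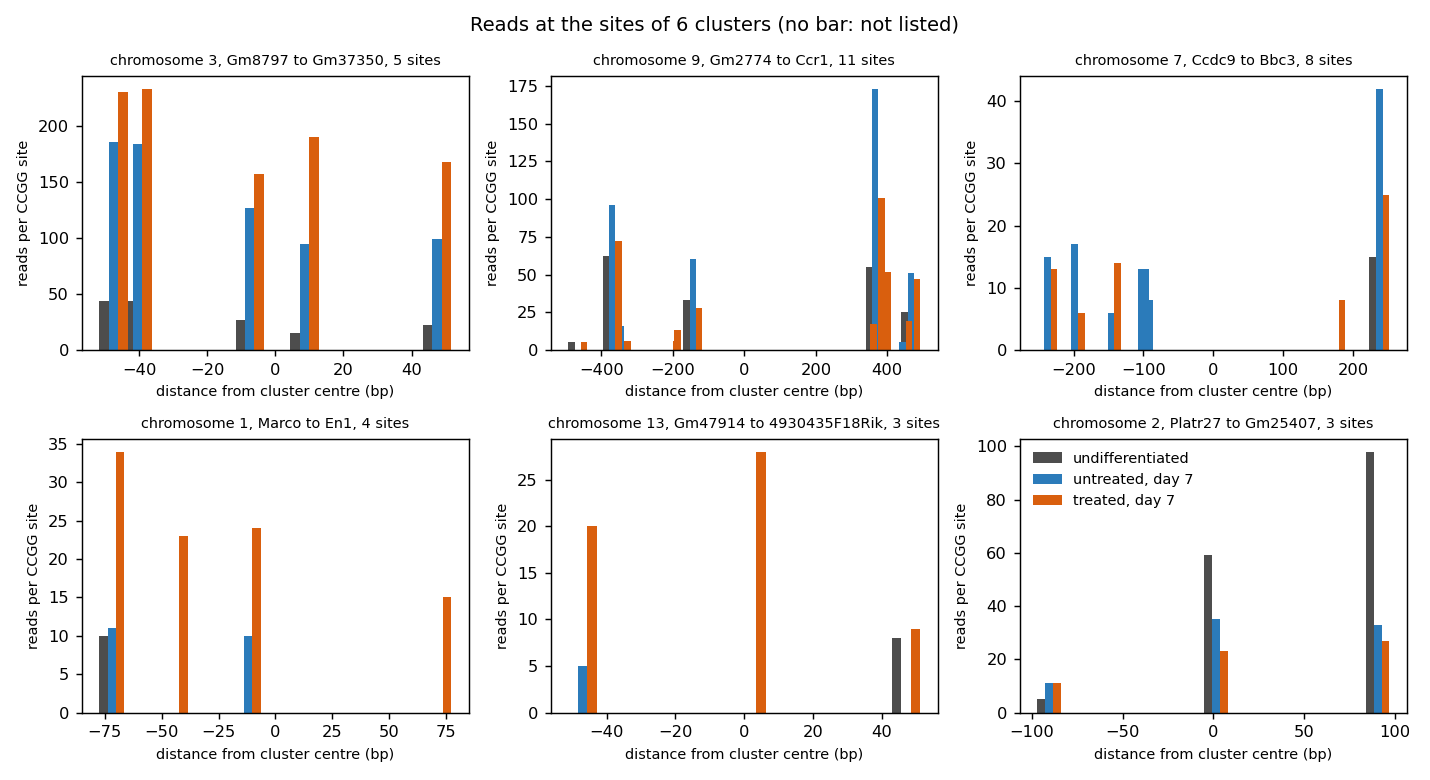
Reads at each listed CCGG site of 6 clusters by distance from the cluster centre, with 1 bar per library and no bar where the site was not listed. The chromosome 3 cluster is higher in both day 7 samples at all 5 sites, the clusters near En1 and on chromosome 13 have their highest bars in treated cells, and the chromosome 2 cluster is highest in undifferentiated cells at 2 of 3 sites.

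Among the named clusters in masked repeats, those with the highest day 7 ratios had similar sequences. A cluster of 4 sites on chromosome 1, 55 kb from Rb1cc1, an autophagy gene, had 0, 116 and 165 reads, and a cluster of 3 on chromosome 6 between Gm23013 and Gm44446 had 10, 56 and 42. The 30 bases at their deepest sites matched at 28 positions on opposite strands. The first of these sites had 36 exact copies of its 32 bp sequence in the assembly, and the second had 101 relatives at 1 mismatch. In the Rb1cc1 cluster, 50% of the sites were single-copy. A neighbouring single-copy site there had the same 0, 44 and 61 reads as the deepest site. On chromosome 17, between BC002059 and Zfp960, 6 sites had 45, 151 and 63 reads. It was 83.3% masked and had the lowest ratio of treated to untreated among clusters with at least 50 reads (log2 -0.80). The next lowest, both masked, lay on chromosome 3 (log2 -0.66 and -0.65), with 59, 174 and 76 reads between Gm37746 and Gm37365, and 100, 141 and 65 reads between Gm38324 and Gm37636. A cluster of 8 sites on chromosome 19, 75% of them masked, had 82, 117 and 73 reads.

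Most dense islands stayed largely unlisted. When all 31548 motifs were chained with the same gap, they formed 4888 islands, of which 193 had at least 5 single-copy motifs (1496 motifs). None of the single-copy motifs was listed in 92 of these islands in undifferentiated cells, in 54 in untreated cells and in 36 in treated cells, and 21 islands had none in any library. Every single-copy motif was listed in 1, 5 and 8 islands. Of 2295 islands of at least 5 motifs of any kind, 120 had no listed site in undifferentiated cells and at least 1 in both day 7 samples, and 15 had a listed site in undifferentiated cells and none in either day 7 sample. Matching counts for other classes of CCGG motifs are not given here, so these counts cannot be called particular to this set. Of the 120, 68 had a single-copy motif among those listed on day 7, and the others had repeated motifs alone, a kind listed more often on day 7 over all autosomes.

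The named islands of this kind had 3 or 4 motifs listed in each day 7 sample. The island with the most reads held the masked cluster near Rb1cc1 described above, with 4 of 7 motifs listed in each and 116 and 165 reads. On chromosome 13, 29.7 kb from Ap3b1, which encodes an adaptor complex subunit, 4 of 5 motifs were listed in each day 7 sample with 44 and 33 reads in all, and none before. On chromosome 18, 9.23 kb from Skor2, which encodes a transcriptional corepressor, and inside a RefSeq gene model, 4 and 3 of 5 motifs were listed, with 31 and 34 reads. A larger island of 17 motifs on the same chromosome, near 2010010A06Rik and Gm20544, had 4 and 3 listed motifs, with 35 and 25 reads. In an island of 8 motifs between Smug1 and Cbx5, separate from the cluster described above, 3 motifs were listed on day 7 with 17 and 20 reads. In these 4 islands of single-copy motifs, every listed site had between 5 and 16 reads.

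Of the 3824 single-copy motifs, 164 had a developmental regulator gene as their nearest gene, from a list of gene families that included Hox, Nkx, Pax, Dlx, Sox, Fox, Gata, Tbx and Neurog but not every homeobox gene. These motifs, next to 35 genes, were listed at 12.2% (20 motifs, 8.03 to 18.1), 23.8% (39, 17.9 to 30.8) and 36.6% (60, 29.6 to 44.2) in undifferentiated, untreated and treated cells. Motifs next to genes outside the lists were listed at 30.9%, 39% and 45.5%. The motifs near developmental regulators had a median CpG ratio of 0.73, against 0.61 for the others, and lay nearer to the gene (median 8.92 kb against 16.4 kb), and the parts of these in the lower share were not tested. CpG-poor motifs far from genes next to developmental regulators were listed at 76.7%, 76.8% and 77.0%.

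Gene by gene the counts near developmental regulators were small, and those of every gene of the list with at least 3 sites are given as reads summed over its sites in undifferentiated, untreated and treated cells. These sums are not scaled. The scaling factors over all CCGG sites were 1.19 for untreated and 0.85 for treated against undifferentiated cells, so close ranks can change with scaling. Pax2, a factor of kidney and eye development, had 0, 7 and 43 reads at 4 sites. Neurog1, a proneural factor, had 6, 5 and 49 reads at 5 sites, and Foxd1 had 12, 6 and 38 at 3. In these genes treated cells stood out. Gbx2, a homeobox factor of the hindbrain, had 0, 18 and 45 reads at 3 sites, Nkx2-5, a cardiac homeobox factor, had 7, 18 and 29 at 5, Ebf3 had 5, 7 and 22 at 3, and Pax3 had 0, 6 and 10 at 3, in the order of the 3 libraries. Pax5, a factor of B cells, had 10, 29 and 31 reads at 4 sites. Others did not follow this order in unscaled reads. Gata6, an endoderm factor, had 26, 25 and 26 reads at 6 sites, all at least 100 kb from the gene. Pax7 had 52, 81 and 60 reads at 3 sites, Meis1 had 13, 22 and 13 at 4, and the neuronal factor Neurod2 had 0, 20 and 7 at 3, with untreated cells highest before scaling. The lead of untreated cells at Pax7 does not hold after scaling. Dlx2 had 11, 5 and 12 reads and Tlx1 had 11, 0 and 15, at 3 sites each.

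Some further homeobox genes lay outside the list and were looked up after the values were seen. Uncx had 38, 65 and 97 reads at 8 sites, En1 had 30, 53 and 154 at 7, Lmx1b had 23, 25 and 71 at 7 and En2 had 29, 25 and 54 at 5, with treated cells highest. In unscaled reads treated cells were not highest at 2 others. Gsc, which encodes goosecoid, had 146, 175 and 138 reads at 5 sites, and Lbx1 had 46, 41 and 44 at 4. After scaling, the log2 ratio of the Gsc sites was 0.15 for treated against undifferentiated and 0.12 for treated against untreated cells, so this contrast depends on scaling. Of all genes outside the lists, Cbx8, which encodes a Polycomb protein, had the most sites, 22, with 127, 135 and 295 reads.

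The other gene lists held few motifs. Next to olfactory receptor genes, 27 single-copy motifs were listed at 44.4%, 55.6% and 40.7%, and next to vomeronasal receptor genes, 29 motifs at 34.5%, 37.9% and 34.5%. Next to numbered zinc finger genes, 39 motifs were listed at 15.4%, 23.1% and 28.2%. Imprinted genes had 3 motifs, all next to Dlk1, which is expressed from the paternal allele, with 46, 19 and 26 summed reads. The intervals of the 3 libraries overlapped within each of these lists.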

How the data were processed

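Genomic DNA of E14Tg2A cells was cut with FspEI, and fragments near 30 bp were sequenced. After trimming, the authors kept good reads that held an FspEI site. Bowtie2 placed these on GRCm38 with at most 1 mismatch, and reads with 1 position in the genome were counted at each CCGG, CCAGG or CCTGG. The submitters' processing notes name FastQC 0.11.3 and Bowtie2 2.3.3. The deposited counts are raw reads per site, and sites under 5 reads were removed. The deposited RPM values are the counts relative to mapped reads and were used here only to recover the mapped reads of each library (50959902, 73712891 and 67235272). Copies made by PCR were not separated.

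CCGG rows of type M were placed on the GRCm38 sequence of RefSeq and on GENCODE M21 basic genes (55450). For each motif, the CpG ratio and GC of the centred 500 bp, the soft masking of its letters and the number of CCGG-centred 32 bp sequences equal to its own on either strand were computed. Shares have 95% Wilson intervals for counting error. No test was made, because each condition has 1 library. Clusters and islands were chains with gaps up to 500 bp. The named clusters were the 5 with the most sites (ties went to the most reads) and, among those of at least 3 sites with at least 50 reads in the higher library, the 3 highest and the 3 lowest ratios of each comparison. The 5 sites with the most reads and up to 5 islands unlisted in the undifferentiated sample with the most sites listed in both day 7 samples were added. The sites and gene lists were chosen with earlier results of these data known. Alternatives covered distance, CpG, GC and window limits, uniqueness, masking, read cutoffs, scaling, fold and gap. The motif, distance, chain, call and interval code was tested on simulated data. The code ran in Python 3.11.15 with SciPy 1.17.1, pandas 2.3.3 and numpy 2.4.6, and figures were drawn with matplotlib 3.10.9. The RefSeq models were used only to check distances, and repeat families were not analysed here.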

Additional observations from a re-analysis of the deposited data

Results flagged for a closer look

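CCAGG motifs were not among the sites of the report, and they were listed in the same sequence. Of the 1354 CCAGG motifs in unmasked CpG-rich windows far from genes, 36.6% were listed in the treated sample, above the 13.3% of the undifferentiated sample. Over all autosomal CCAGG motifs the shares were 24.0% and 7.25%, so the higher treated share is seen across the genome. The untreated list held the undifferentiated counts at these motifs, so treated and untreated could not be compared there. The paper reports more CCAGG and CCTGG sites in untreated than in treated cells, which the deposited untreated list does not show.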

How the results depend on the processing

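No paired analysis was possible because each condition has 1 library, and no library could be left out. Values are in the order undifferentiated, untreated and treated for shares, and untreated against undifferentiated, treated against undifferentiated and treated against untreated for calls and medians. The order of the 3 shares held under 12 of 12 alternatives, but not among single-copy motifs with at least 20 reads (9.94%, 13.9% and 11.5%). Shares were 3.42%, 5.05% and 6.48% at over 10 kb from genes, 4.30%, 6.36% and 8.57% at over 2 kb, and 3.42%, 5.07% and 6.48% when RefSeq genes also had to be over 5 kb away. With a CpG ratio above 0.6, 1030 sites remained with shares of 3.10%, 4.85% and 6.57%. Above 0.75, 253 sites had shares of 6.78%, 10.5% and 13.5%, 33, 52 and 40 higher calls, 12, 12 and 5 lower calls and medians of 0.024, 0.52 and 0.46. With GC above 50% there were 6021 sites and shares of 7.76%, 9.81% and 11.5%, and with 300 bp windows 4177 sites and 5.82%, 8.13% and 9.87%. Single-copy motifs gave 30.0%, 38.3% and 44.9%. Outside masked repeats, 1392 sites had shares of 20.5%, 26.9% and 34.6%, 190, 365 and 293 higher calls (18.3%, 28.5% and 21.9%, against 15.1%, 19.2% and 11.2% of all unmasked autosomal sites), 102, 82 and 64 lower calls (9.84%, 6.40% and 4.79%, against 17.9%, 18.8% and 6.54%), and medians of 0.037 and 0.46 for the untreated against the undifferentiated and the treated against the untreated sample. Single-copy sequences without a relative at 1 mismatch gave 1498 sites, 27.1%, 35.4% and 44.0%, 223, 395 and 300 higher calls, 83 lower calls for treated against untreated and a median of 0.10 for untreated against undifferentiated. This setting and the RefSeq distance were chosen after seeing the data. A cutoff of 10 reads left 1523 sites (2.21%, 3.28% and 3.81%) and 97 clusters of at least 3, and the same cutoff scaled by library left 1583 sites (2.21%, 2.78% and 4.31%). Scaling by mapped reads turned the medians to -0.073, -0.25 and -0.037, with 261 and 416 higher calls against the undifferentiated sample and 252 and 255 lower calls in the treated comparisons. Calls from sites listed in both libraries alone were 179, 261 and 258 higher, and 95, 74 and 85 lower. With at least 20 reads in the higher library they were 175, 185 and 110 higher and 67, 80 and 78 lower. The higher shares then fell below those of all autosomal sites. With a 1.5-fold limit, 568, 794 and 646 were higher (29.0%, 32.0% and 24.4%, against 25%, 27.3% and 19.2% of all autosomal sites) and 207, 208 and 291 lower (10.6%, 8.38% and 11%, against 26%, 27.8% and 17.5%). The cause of these moves was not tested beyond the number of sites each setting keeps. Depth limits the set as a whole, since about 30% of the sites in each list had 5 to 7 reads.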
